A study of Mus musculus with 9 samples.

Results

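Polycomb complex genes encode the repressors that keep silenced genes silent through cell division. The set was fixed by name as 10 genes, 6 of Polycomb repressive complex 1 (PRC1: Bmi1, Ring1, Rnf2, Cbx7, Cbx8 and Phc1) and 4 of Polycomb repressive complex 2 (PRC2: Ezh1, Ezh2, Eed and Suz12), out of 19057 genes with a named probe on the array. Every probe annotated to them was read, 17 probes in all, of 34885 with 1 gene symbol. The cells were LSK cells, named for low lineage markers with Sca-1 and Kit, the marrow fraction in which stem cells and the earliest progenitors lie, sorted from male C57BL/6 mice aged 12 weeks that had received 150 μg/g of 5-fluorouracil 6 days earlier. Mice without Socs2 (Socs2-/-) gave 4 arrays and wild-type mice (wt) gave 5, both genotypes had received the drug, and no undrugged group is analysed here. The labels give neither the deleted part of Socs2 nor the number of mice behind an array, so every test rests on array-to-array spread, some of which may be technical.

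PRC2 places methyl groups on a lysine of histone H3 that marks silenced genes, with Ezh1 or Ezh2 as the catalytic subunit and Eed and Suz12 as partners without which the enzyme is inactive. Canonical PRC1 reads that mark through a Cbx protein, places ubiquitin on histone H2A through Ring1 or Rnf2, and compacts chromatin with the help of Phc proteins, with Bmi1 as the partner that stimulates the ligase. In mouse bone marrow, Bmi1 is known for sustaining the self-renewal of stem cells, in part by silencing the cell cycle inhibitor locus Cdkn2a, and Ezh1 for protecting adult stem cells from senescence.

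The RefSeq promoters of Bmi1 and Ezh1 are shown first because these were the members on which the arrays of the genotypes did not overlap, Bmi1 lower and Ezh1 higher in Socs2-/-. The Ezh2 promoter is shown beside them because Ezh2 is the other catalytic subunit of PRC2 and its brightest probe read alike in both genotypes. Each window runs from 250 bases before to 50 bases after the annotated start (build GRCm38.p6), printed 5′ to 3′ along the gene, with motif matches in capitals.
Bmi1, chr2:18676768-18677067, + strand: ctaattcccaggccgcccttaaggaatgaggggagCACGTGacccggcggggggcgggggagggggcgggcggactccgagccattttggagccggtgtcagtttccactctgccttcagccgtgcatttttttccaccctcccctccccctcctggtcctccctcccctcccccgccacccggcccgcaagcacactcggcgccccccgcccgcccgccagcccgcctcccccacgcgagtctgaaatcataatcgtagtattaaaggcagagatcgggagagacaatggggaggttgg
Ezh1, chr11:101226414-101226713, - strand: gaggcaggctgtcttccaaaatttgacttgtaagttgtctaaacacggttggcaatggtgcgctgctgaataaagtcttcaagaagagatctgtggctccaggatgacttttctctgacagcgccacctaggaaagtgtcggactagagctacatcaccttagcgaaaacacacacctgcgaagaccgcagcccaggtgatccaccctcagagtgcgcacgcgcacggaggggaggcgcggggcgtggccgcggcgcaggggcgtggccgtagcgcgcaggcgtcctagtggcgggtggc
Ezh2, chr6:47594981-47595280, - strand: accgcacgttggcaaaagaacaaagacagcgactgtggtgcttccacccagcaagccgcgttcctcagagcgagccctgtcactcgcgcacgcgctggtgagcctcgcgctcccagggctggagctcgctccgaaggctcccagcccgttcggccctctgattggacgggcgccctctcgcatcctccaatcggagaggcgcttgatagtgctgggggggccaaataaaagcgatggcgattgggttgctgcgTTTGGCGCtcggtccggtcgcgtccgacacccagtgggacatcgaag
A search on both strands covered the STAT motif TTCNNNGAA, the E2F motif TTTNNCGC and the E-box CACGTG, which do not overlap one another in these windows. The capitals in Bmi1 mark an E-box at position -215 from the start and those in Ezh2 an E2F match at position 3, while the Ezh1 window held none of these motifs. Among all 10 members the E-box was found in 2 promoters (Bmi1 and Cbx8), the E2F motif in 2 (Ezh2 and Suz12) and the STAT motif in 1 (Phc1). Over 32851 promoters the shares with a match were 7.15% for the E-box, 5.17% for the E2F motif and 8.30% for the STAT motif. A match describes the letters and is neither a shown binding site nor a cause of any value below.

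Values are the authors' deposited log2 intensities, and 7.5 was used as the level above which a probe was taken as detected. The share of all probes above it was 34.3% to 35.4% on the wt arrays, 35.1% and 34.8% on Socs2-/- arrays 3 and 4, and 31.1% and 31.0% on Socs2-/- arrays 1 and 2. The latter pair stood apart from the rest, with median correlations to the other arrays of 0.68 and 0.65 against 0.78 to 0.82 for wt arrays, so gene differences are also given without it. Socs2 itself read 9.38 to 10.36 on wt arrays and 6.58 to 6.80 on Socs2-/- arrays, a log2 difference of -2.96 (SE 0.34, limma adjusted p = 0.036). It was the only gene of 8543 tested to pass the adjusted threshold, and no Polycomb gene did. Among LSK markers, Kit was above 7.5 on 8 of 9 arrays, Cd34, Procr and Cd48 on all 9, Flt3 on 8 and Slamf1 on 4, while Ly6a, which encodes Sca-1, is not analysed here. Of 9 granulocyte and monocyte markers, Lyz1, Lyz2 and Prtn3 were above 7.5 on all 9 arrays, Csf1r on 8, Mpo on 7 and Ctsg on 6, while Elane was at or below it on every array. Markers of other lineages above 7.5 on all 9 arrays were Siglech and Bst2 (plasmacytoid and dendritic), Gp9 and Pf4 (megakaryocyte), Hbb-b2 (erythroid), and Cd8a and Cd8b1 (T and NK). No B lymphoid or mast cell and basophil marker was.

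Of the 10 members, 8 had a probe above 7.5 on at least 4 of the 9 arrays and entered the comparison across all genes, 4 of PRC1 and 4 of PRC2. Neither Cbx7 nor Cbx8 did. At an unadjusted p under 0.05 there was 1 lower member, Bmi1, where 7.87% of all genes tested were lower, and 1 higher member, Ezh1, where 2.29% of all genes were higher. In all, 2 of 8 stood at that level against 10.2% of all genes. Without Socs2-/- arrays 1 and 2, Ezh1 and Phc1 did, both higher, where 3.44% of all genes were lower and 2.96% higher. Over all 9 arrays the genotypes did not overlap in 2 members, Bmi1 and Ezh1, against 3.70% of all genes (2.72% lower and 0.983% higher). The difference was below 0 in 5 of the 8, against 59.5% of all genes. At an adjusted p under 0.05 there were 0 members against 0.0117% of all genes, the smallest adjusted p being 0.301 for Ezh1 by limma.

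**Figure D1:**
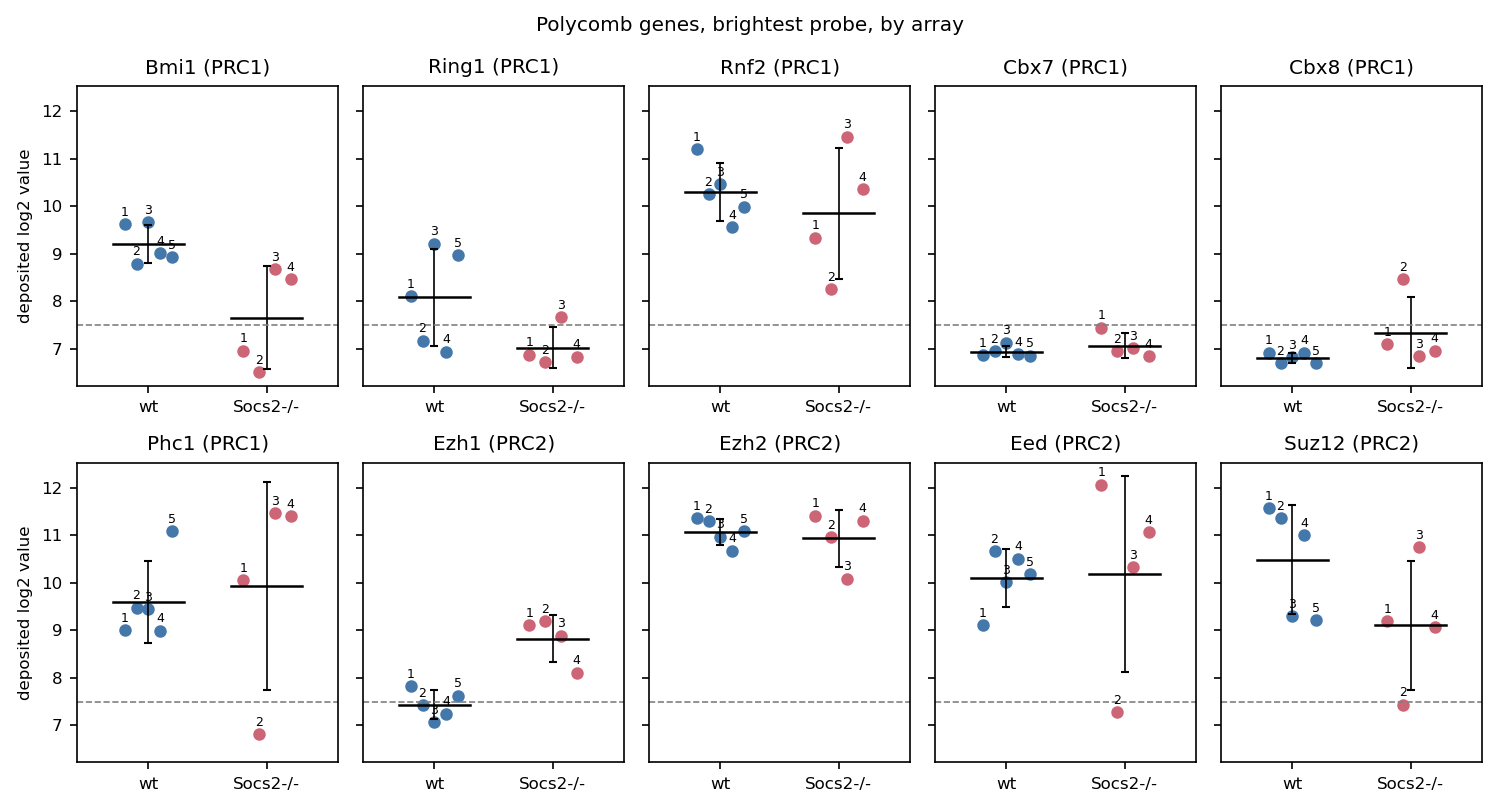
Deposited log2 values (y axis) of the brightest probe of each of the 10 Polycomb genes on 5 wt arrays (blue) and 4 Socs2-/- arrays (red), numbered by replicate, with mean and SD in black and the 7.5 level dashed. Ezh1 values lie higher on all 4 Socs2-/- arrays than on any wt array, Bmi1 values lie lower, and Socs2-/- array 2 is at or below 7.5 for Bmi1, Ring1, Cbx7, Phc1, Eed and Suz12.

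Bmi1, the PRC1 subunit that stimulates ubiquitin transfer, has a single probe on the array (ILMN_2645439). It read 9.63, 8.79, 9.66, 9.02 and 8.94 on wt arrays 1 to 5, and 6.97, 6.51, 8.68 and 8.47 on Socs2-/- arrays 1 to 4. All 4 Socs2-/- values were below all 5 wt values, arrays 1 and 2 by a wide step and arrays 3 and 4 only just. The means were 9.21 ± 0.41 (SD, n = 5) and 7.66 ± 1.08 (SD, n = 4), and the log2 difference was -1.55 (SE 0.52, 95% interval -2.69 to -0.41, limma adjusted p = 0.413). Without Socs2-/- arrays 1 and 2, where the probe was below 7.5, the difference was -0.63 (limma adjusted p = 0.90). The part of these arrays in the result was not tested.

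Ring1 and Rnf2 are the alternative ubiquitin ligases of PRC1. The brighter Ring1 probe (ILMN_2932539) read 8.11, 7.18, 9.21, 6.95 and 8.98 on the wt arrays and 6.88, 6.72, 7.67 and 6.83 on the Socs2-/- arrays. It was above 7.5 on 3 of 5 wt arrays and 1 of 4 Socs2-/- arrays, the ranges overlapped, and the difference was -1.06 (SE 0.54, 95% interval -2.25 to 0.14, limma adjusted p = 0.525), or -0.83 without arrays 1 and 2. Its other probe (ILMN_2770715) was above 7.5 on wt array 1 only and had -0.24 (95% interval -0.75 to 0.26), or -0.09 without them. Rnf2, detected on all 9 arrays, read 9.56 to 11.20 in wt and 9.34, 8.25, 11.47 and 10.36 in Socs2-/-. Its highest and its lowest value were both on Socs2-/- arrays. The Rnf2 difference was -0.44 (SE 0.63, 95% interval -1.83 to 0.95, limma adjusted p = 0.818), became 0.09 without Socs2-/- array 2 and was 0.62 without arrays 1 and 2.

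Phc1, a polyhomeotic protein that links PRC1 particles, has 3 probes, and they did not share a sign. The brightest (ILMN_2773464) read 8.999, 9.47, 9.45, 8.99 and 11.08 in wt and 10.06, 6.81, 11.47 and 11.40 in Socs2-/-. Socs2-/- arrays 3 and 4 lay above every wt array and array 2 below 7.5, giving a difference of 0.33 (SE 0.91, 95% interval -1.67 to 2.34, limma adjusted p = 0.909). That value was 1.38 without Socs2-/- array 2 and 1.83 without arrays 1 and 2 (limma adjusted p = 0.592). The next probe (ILMN_3142248) had -0.34 over all arrays and 0.32 without arrays 1 and 2, with Socs2-/- array 3 (8.84) inside the wt range of 8.78 to 10.46. The dimmest probe (ILMN_3064382) had -0.30, or -0.07 without them.

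The Cbx proteins carry the chromodomain that binds methylated histone H3. The single Cbx7 probe was at or below 7.5 on all 9 arrays, from 6.86 to 7.45, so no level was measured there. Cbx8 read 6.70 to 6.92 in wt and 7.11, 8.47, 6.85 and 6.96 in Socs2-/-. Only Socs2-/- array 2 exceeded 7.5 for Cbx8, so neither gene has a measured difference between the genotypes.

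Ezh1, the PRC2 methyltransferase subunit that persists in resting cells, was the member whose values separated most steadily. Its single probe (ILMN_3107974) read 7.82, 7.42, 7.07, 7.25 and 7.63 on the wt arrays and 9.10, 9.19, 8.89 and 8.11 on the Socs2-/- arrays. All 4 Socs2-/- arrays were above 7.5 and above every wt array, and 2 of the 5 wt arrays were above 7.5. The means were 7.44 ± 0.30 (SD, n = 5) and 8.82 ± 0.49 (SD, n = 4), a log2 difference of 1.38 (SE 0.37, 95% interval 0.57 to 2.20, limma adjusted p = 0.301). By p this was the 14th of the genes higher in Socs2-/- out of 8543 tested. The exact two-sided permutation p was 0.0159, as for Bmi1, the smallest that 126 splits of the arrays can give. Because the wt mean lay below 7.5, the size of the difference is uncertain. Without Socs2-/- arrays 1 and 2 it was 1.06 (limma adjusted p = 0.657), and with each single array left out it ran from 1.26 to 1.62.

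Ezh2, the methyltransferase subunit that goes with cell division, has 3 probes annotated to the same transcript (NM_007971). The brightest (ILMN_2606429) read 11.35, 11.29, 10.97, 10.68 and 11.08 in wt and 11.41, 10.96, 10.09 and 11.31 in Socs2-/-, a difference of -0.13 (SE 0.38, 95% interval -0.99 to 0.72, limma adjusted p = 0.916), or -0.38 without arrays 1 and 2. The ranges overlapped almost entirely, and the interval leaves room for a change in either direction. The second probe (ILMN_2988572) read 6.84 on Socs2-/- array 1 and 9.47 to 10.87 on the other 3, against 9.56 to 10.47 in wt, a difference of -0.40, or 0.20 without arrays 1 and 2. The last (ILMN_1234171) read 6.87 and 6.85 on Socs2-/- arrays 1 and 2, then 10.89 and 9.06 on arrays 3 and 4, against 9.46 to 10.81 in wt. Thus on Socs2-/- array 1 the brightest Ezh2 probe stood at its wt level while the others were below 7.5. The difference of this last probe was -1.68 (95% interval -3.57 to 0.20) and became -0.13 without arrays 1 and 2.

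Eed, which binds the methyl mark and stimulates the enzyme, read 9.10 to 10.67 in wt and 12.06, 7.28, 10.33 and 11.06 in Socs2-/-. Its highest value fell on Socs2-/- array 1 and its lowest on array 2, and the difference was 0.09 (SE 0.83, 95% interval -1.76 to 1.93, limma adjusted p = 0.98), or 1.05 without array 2, -0.54 without array 1 and 0.60 without both. Another Eed probe (ILMN_1253609), annotated to a different transcript (AK016228), was at or below 7.5 on all arrays.

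Suz12, the subunit that holds PRC2 together, has a pair of probes with nearly the same difference. The brighter (ILMN_3009010) read 11.57, 11.36, 9.30, 10.999 and 9.21 in wt and 9.19, 7.44, 10.75 and 9.06 in Socs2-/-. Socs2-/- arrays 1, 2 and 4 lay below every wt array, and array 3 lay within the wt range. The difference was -1.38 (SE 0.74, 95% interval -3.01 to 0.26, limma adjusted p = 0.545), -0.82 without Socs2-/- array 2 and -0.58 without arrays 1 and 2. The other probe (ILMN_2764991) read 8.86, 10.09, 9.67, 10.12 and 9.12 in wt and 7.81, 6.91, 8.10 and 9.96 in Socs2-/-. Here array 4 was the Socs2-/- array within the wt range, and the difference was -1.38 (95% interval -2.72 to -0.04, limma adjusted p = 0.68), or -0.54 without arrays 1 and 2.

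**Figure D2:**
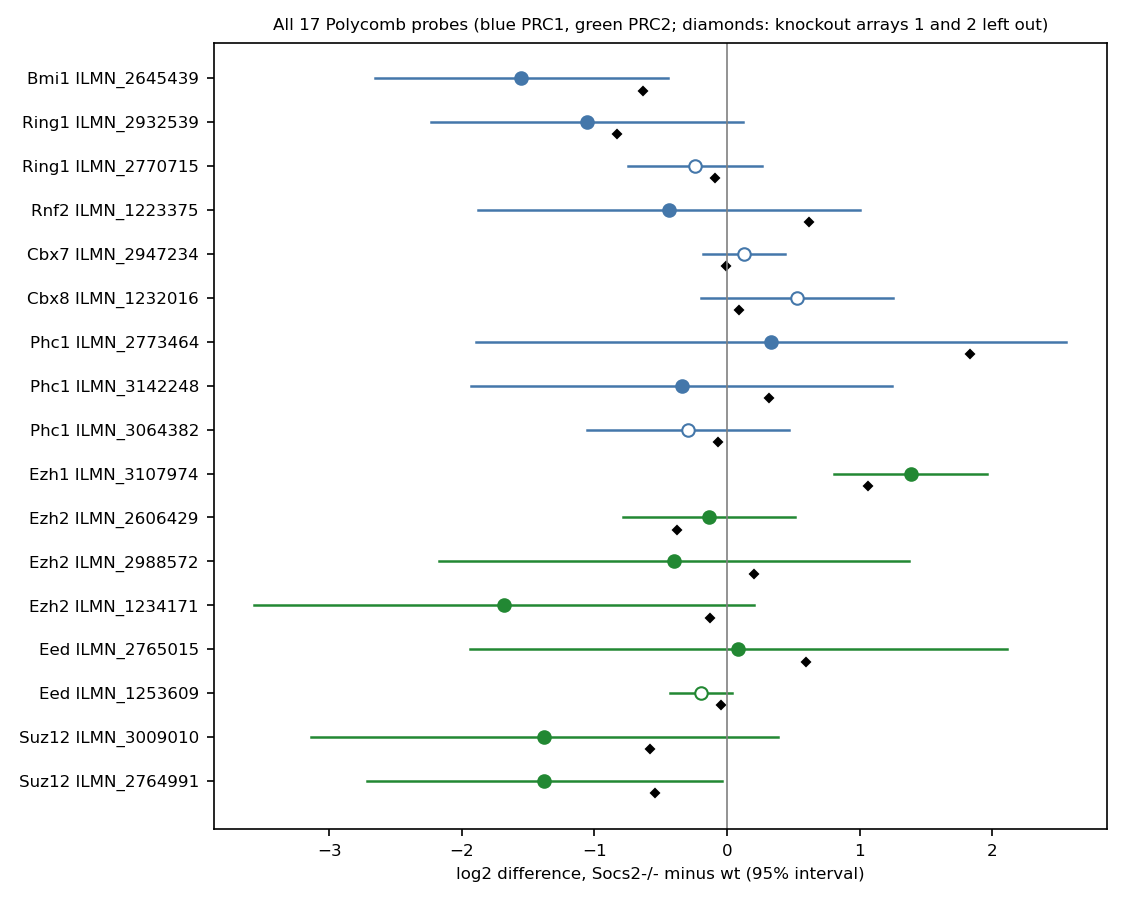
Log2 difference, Socs2-/- minus wt (x axis), of all 17 Polycomb probes from the fit of all named probes, with 95% intervals; open circles are probes that did not meet the filter, and black diamonds give the value with Socs2-/- arrays 1 and 2 left out. Ezh1 stays at 1.06 with these arrays left out, while the Ezh2 probe ILMN_1234171 moves from -1.68 to -0.13.

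In the fit of all 34885 named probes without a filter, 3 of the 17 member probes had an unadjusted p under 0.05 against 7.28% of all named probes. These were Bmi1 and a Suz12 probe on the lower side, where the background was 4.74%, and Ezh1 on the higher side, where it was 2.54%. None passed after adjustment (0 of 17 against 0.0143%, smallest limma adjusted p = 0.271 for Ezh1). The genotypes did not overlap in 2 of the 17, against 3.02% of all named probes, and 12 of the 17 were below 0, against 53.1% of all named probes.

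Read as complexes, PRC1 had a median log2 difference of -0.75 over its 4 measured members and PRC2 of -0.02 over its 4, beside -0.18 over all genes. Without Socs2-/- arrays 1 and 2 the medians were -0.01 and 0.11, beside -0.03 over all genes. The PRC2 median covered differences from -1.38 for Suz12 to 1.38 for Ezh1. Averaged over members as a deviation from each gene's own mean, PRC1 stood at -0.68 and -1.92 on Socs2-/- arrays 1 and 2 and at 0.83 and 0.27 on arrays 3 and 4, against -0.37 to 0.75 on wt arrays. PRC2 stood at 0.67, -1.05, 0.24 and 0.12 on Socs2-/- arrays 1 to 4, against -0.43 to 0.42 on wt arrays. Array 2 was the lowest for both complexes, while array 1 was low for PRC1 and the highest of all for PRC2.

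Of the 12 member probes that met the filter, 8 were at or below 7.5 on Socs2-/- array 2 and 4 on array 1, against 0 and 1 on arrays 3 and 4 and 0 to 2 on the wt arrays. Over all probes that met the filter the corresponding shares were 40.7% and 36.6%, 16.8% and 21.0%, and 16.3% to 19.8%. On array 2 the member share, 8 of 12, was above the share of all probes, and on array 1, with 4 of 12, it was near that share. The cause of these losses was not tested.

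**Figure D3:**
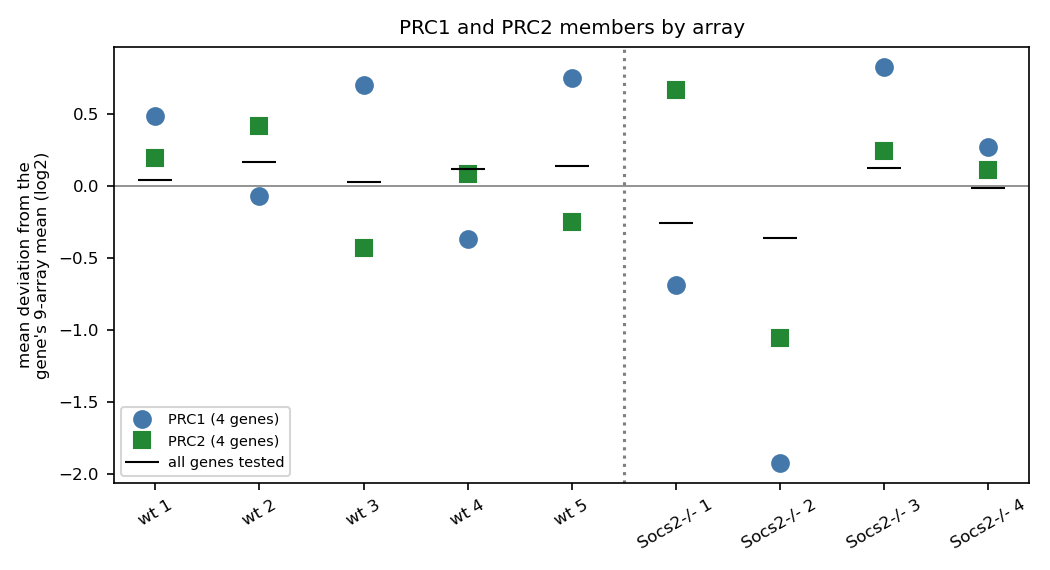
Mean deviation of PRC1 (circles) and PRC2 (squares) members from each gene's mean over the 9 arrays, on the log2 scale (y axis), by array (x axis), with the same for all genes tested as a black bar. Socs2-/- array 2 reads -1.92 for PRC1 and -1.05 for PRC2, and arrays 3 and 4 lie close to the wt range.

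The other genes of the Polycomb system were read from lists. Among variant PRC1 genes, whose complexes carry other Pcgf proteins and do not need the methyl mark, 14 of 18 were measured. In 3 of them Socs2-/- was lower with an unadjusted p under 0.05, against 7.87% of all genes, and in 0 it was higher, against 2.29%, and the list median was -0.47. Kdm2b, which brings a variant complex to unmethylated CpG islands, read 10.32, 9.71, 10.51, 9.66 and 9.76 in wt and 8.51, 9.52, 8.94 and 8.06 in Socs2-/-. The genotypes did not overlap, with Socs2-/- lower, in this gene alone of the 14, against 2.72% of all genes. The Kdm2b difference was -1.24 (SE 0.41, limma adjusted p = 0.413) and -1.49 without Socs2-/- arrays 1 and 2. Of the 4 Kdm2b probes that met the filter, 3 were below 0 and ILMN_3038394 had 0.74. Pcgf5, the defining subunit of a variant complex, read 9.29 to 11.19 in wt and 9.18, 7.27, 9.62 and 7.09 in Socs2-/-. Array 3 lay within the wt range and array 4 below 7.5. The Pcgf5 difference was -1.91 (SE 0.65, limma adjusted p = 0.415) and -1.85 without Socs2-/- arrays 1 and 2, and its other probe had -0.98. The corepressor Bcor had -1.76 (SE 0.62), or -0.49 without these arrays, where it was below 7.5, and its other probes that met the filter had -1.04 and -0.09. Without Socs2-/- arrays 1 and 2, 4 genes of this list stood at that level: Kdm2b, Pcgf5 and Pcgf3 (-1.32, and -0.97 over all arrays) were lower, against 3.44% of all genes, and Yaf2 (2.37, and 1.03 over all arrays) was higher, against 2.96%. Pcgf3 and Yaf2 were picked out after their values were seen. The median of this list was 0.28 without Socs2-/- arrays 1 and 2.

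Other canonical PRC1 genes had 3 of 8 members measured, of which 0 had an unadjusted p under 0.05, against 10.2% of all genes. Phc2, a Phc1 paralogue, had 1.09 (0.53 without Socs2-/- array 1 and 0.30 without arrays 1 and 2). PRC2 partners and accessory genes had 7 of 9 measured, 0 at that level (10.2% of all genes) and a median of -0.34. Jarid2, which helps PRC2 find its targets, had -1.14 (SE 0.59), -0.68 without wt array 2 and -0.95 without Socs2-/- arrays 1 and 2. It was above 7.5 on Socs2-/- array 4 alone among the knockouts, and its other probe had -0.61 over all arrays. The H2A deubiquitinase genes, which remove the mark placed by PRC1, had 7 of 10 measured. Of these, 0 stood at that level (10.2% of all genes), and the median was -0.32. Foxk2 had -1.71, -0.84 without Socs2-/- array 1 and -0.38 without arrays 1 and 2, and its other probe that met the filter had -0.84 over all arrays. Ogt, a sugar transferase that joins this complex, had -1.28, -0.52 without Socs2-/- array 1 and -0.85 without arrays 1 and 2, and all 4 of its probes were below 0. Bap1, the enzyme, had 0.87, 0.47 without array 2 and 0.40 without arrays 1 and 2. The medians of these 3 lists without arrays 1 and 2 were 0.30, 0.36 and 0.03.

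Genes acting against Polycomb, the demethylases that erase the PRC2 mark and the MLL-type methyltransferases, had 13 of 14 measured and a median of 0.03, with 2 genes lower in Socs2-/- (7.87% of all genes) and 0 higher (2.29% of all genes) at that level. Setd1a, a histone H3 methyltransferase found at active promoters, had -1.34 (SE 0.47, limma adjusted p = 0.415), or -0.69 without Socs2-/- arrays 1 and 2. Kmt2d, an enhancer methyltransferase, had -1.97 (SE 0.87), or -0.996 without Socs2-/- array 2 and -0.35 without arrays 1 and 2. Without arrays 1 and 2 the list had 1 gene at that level, Men1, an MLL cofactor, higher at 1.06 (1.08 over all arrays), against 2.96% of all genes. The other Men1 probe that met the filter (ILMN_1219210) had only 0.16 over all arrays. Among 17 known targets of Polycomb silencing, 7 were measured, of which 1 was higher (2.29% of all genes) and 0 lower (7.87%) at that level. That gene was Hoxa10, at 1.38 (SE 0.55, limma adjusted p = 0.456) and 0.49 without Socs2-/- arrays 1 and 2. Without these arrays the 1 gene at that level was instead Cdkn1c, a cell cycle inhibitor, higher at 2.47 (0.99 over all arrays), against 2.96% of all genes. Cdkn1c was picked out after its values were seen. It read 6.78 to 8.84 in wt and 6.86, 7.36, 8.85 and 11.26 on Socs2-/- arrays 1 to 4, so the ranges overlapped. Its difference was 0.10 with Socs2-/- array 4 alone left out. The cell cycle inhibitors Cdkn2a and Cdkn2b were among the 10 that did not meet the filter, each above 7.5 on at most 1 array for any probe.

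**Figure D4:**
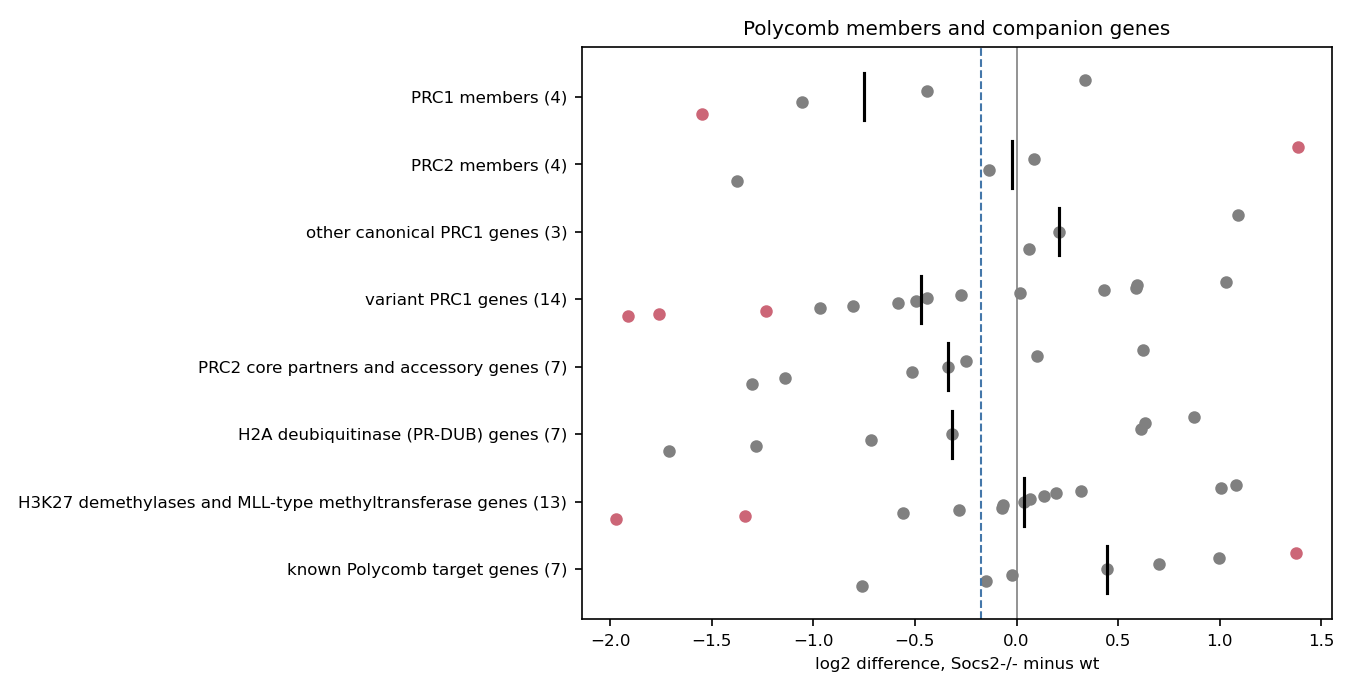
Log2 difference, Socs2-/- minus wt (x axis), of each measured gene in the Polycomb lists, with the number measured in brackets; red points have an unadjusted p under 0.05, black bars are list medians, and the dashed line is the median of all genes, -0.18. The variant PRC1 list holds 3 red points, all below 0, among 14 genes, where 7.87% of all genes were lower at that level.

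In bulk sorted cells, fewer cells of a type and less RNA per cell cannot be told apart. The log2 of the summed level of 8 named erythroid markers was 11.36 to 12.28 on wt arrays and 12.05 to 14.35 on Socs2-/- arrays, with Epor at or below 7.5 on all arrays. The globin gene Hba-a1 read 6.84 to 9.10 in wt and 8.92 to 13.32 in Socs2-/-, a difference of 3.37 (SE 0.82, limma adjusted p = 0.233), the largest above 0 of all 8543 genes, or 2.30 without Socs2-/- arrays 1 and 2. The other globin probe, Hbb-b2, had 0.70, or -0.20 without them. The sum is weighted towards the brightest markers, and the rest of the list did not rise together. Gata1 had 0.05 and Car1 0.30, while Tfrc had -0.12, Alas2 -0.08, Klf1 -0.19 and Epor -0.03. Of these, only Tfrc met the filter. The summed level of 9 granulocyte and monocyte markers was 12.86 to 14.37 in wt and 12.89 to 13.57 in Socs2-/-. Within it, Csf1r, the receptor of a monocyte growth factor, read 6.94 to 8.30 in wt and 8.94 to 10.04 in Socs2-/-. It thus did not overlap, as for Ezh1, where 0.983% of all genes did not overlap on the higher side. The difference was 1.46 (SE 0.42, limma adjusted p = 0.317), or 1.66 without arrays 1 and 2. The other Csf1r probe (ILMN_1230485), above 7.5 on wt array 4 only, had -0.02. Mpo and Ctsg, enzymes of granulocyte precursors, each had -1.58, with -2.19 and -1.36 without Socs2-/- arrays 1 and 2, and their ranges overlapped. The rest of this list went both ways: Prtn3 had 0.34, Itgam 0.38 and Elane 0.03, while Ms4a3 had -0.56, Lyz1 -0.21 and Lyz2 -0.10. The summed level of 6 LSK markers was 11.41 to 12.93 in wt and 12.06 to 13.42 in Socs2-/-, with medians of 12.40 and 12.38. These markers went both ways: Procr had 0.93 and Cd34 0.82, while Slamf1 had -1.40, Flt3 -0.45, Cd48 -0.25 and Kit -0.08. The part of cell makeup in the Polycomb differences was not tested.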

How the data were processed

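Expression was measured on Illumina mouse bead arrays after amplification of 250 pg of total RNA, per the labels' protocols. The authors deposited normalized log2 values, made with lumi per the submitters' processing notes. Version, background correction and transformation are not given in the sources at hand, so folds of dim genes may be understated. Another deposited table has 18 columns named by chip position, which no label links to a sample, and was not used. Groups and replicate numbers came from the sample titles.

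Probes were named through the platform annotation, whose Entrez identifiers all matched the current gene table for the 17 member probes. Genes entered with a value above 7.5 on at least 4 of 9 arrays, and the probe with the highest mean stood for its gene (8543 genes). Genotypes were compared with limma 3.58.1 in R 4.3.3 (lmFit, eBayes, two-sided, no covariate), with Benjamini-Hochberg adjustment over all genes at 0.05, and separately over 34885 named probes with no filter. Single values were also compared with an exact permutation test. The procedure was tested on simulated data. The number of arrays limits the precision. Members and lists were chosen with earlier results of these data known. From each companion list up to 3 genes with the smallest p could be named, and from marker lists those that check the LSK label and up to 2 with the smallest p. Alternatives covered the filter, probe choice, replicate block, array weights, variance model, centring and arrays left out.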

Additional observations from a re-analysis of the deposited data

Results flagged for a closer look

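Each genotype's values for each of the 17 Polycomb probes were searched for a sample far from the others, using the gap to its nearest neighbour over the range of its group. Of 34 groups of values, 5 held such a sample, where the rule marks about 1 in 20 groups of independent, normally distributed values. In every marked Socs2-/- group the other values were below 7.5. The groups are also not independent, as both Ring1 probes read the same gene. The share marked over all probes of the array was not counted, so an excess among Polycomb probes was not tested. Socs2-/- array 3 was the high one for both Ring1 probes, at 7.67 (ILMN_2932539, next value 6.88) and 7.44 (ILMN_2770715, next value 6.87), and for the dim Phc1 probe ILMN_3064382, at 7.84 (next value 6.87). Socs2-/- array 2 was high for Cbx8, at 8.47 (next value 7.11), although it was the array with the fewest detected Polycomb probes. In wild type, array 5 was high for the brightest Phc1 probe, at 11.08 (next value 9.47).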

How the results depend on the processing

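No Polycomb gene passed the adjusted threshold under any alternative, and 120 of 130 values of the 8 measured members under alternatives kept their direction. Bmi1, Ring1, Ezh1 and Suz12 kept it under every alternative in which they were measured. The others turned at least once: Phc1 to -0.0034 with the mean of all probes, Rnf2 to 0.18 with array weights and 0.62 with Socs2-/- arrays 1 and 2 left out, and Phc1, Rnf2, Ezh2 and Eed with single arrays left out. Their ranges with single arrays left out were -0.98 to 0.094 for Rnf2, -0.18 to 1.38 for Phc1, -0.29 to 0.15 for Ezh2 and -0.54 to 1.05 for Eed. The cause was not tested. Members at an unadjusted p under 0.05 numbered 1 of 8 with array weights (Ezh1), against 7.22% of all genes tested. With single arrays left out they numbered 2 to 3 of 8, against 7.68% to 14.5% of all genes. With Socs2-/- arrays 1 and 2 left out they numbered 2 of 8 (Ezh1 and Phc1, not Bmi1), against 6.4%. When all 9 arrays had to exceed 7.5, 0 of the 2 members left stood at that level, against 11.4%. The PRC1 median ran from -1.13 to -0.43 and the PRC2 median from -0.42 to 0.46 with single arrays left out. The PRC1 median was -0.16 over all 6 members with no filter, -0.30 with array weights and -0.01 with Socs2-/- arrays 1 and 2 left out. The PRC2 median was -0.33 with the mean of all probes and 0.09 with centring.

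Genes past the adjusted threshold numbered 1, but 2 with no filter, 3 with all 9 arrays above 7.5, 0 with the variance trend, with centring or with Socs2-/- arrays 1 and 2 left out, and 0 to 7 with single arrays left out, the 7 without wt array 3. Genes at an unadjusted p under 0.05 numbered 868, but 1491 with no filter, 339 with all 9 arrays above 7.5, 547 with Socs2-/- arrays 1 and 2 left out and 656 to 1238 with single arrays left out. Lower genes were 77.4% of the 868, 67.0% of such genes with centring, 61.7% with no filter, 61.9% with all 9 arrays above 7.5 and 53.7% with Socs2-/- arrays 1 and 2 left out. With the replicate number as a block there were 0 and 629 such genes (7.36% of all genes), and Bmi1 and Ezh1 were again the 2 members. Same-numbered arrays deviated together with correlations of -0.07 to 0.04, and 2 of 4 Socs2-/- arrays correlated best with their own number. With so few arrays and no label on the point, whether same-numbered samples share more than a number cannot be told. Values near 7.5 carry little information on size.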

Other observations

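The discordance between Ezh2 probes on Socs2-/- arrays 1 and 2 was counted over the whole array, a count chosen after the Ezh2 values were seen. Among 967 genes with several probes whose mean was above 9, the share with 1 probe at or below 7.5 while another exceeded 9.5 on the same array was 10.5% on Socs2-/- array 1 and 15.5% on array 2. It was 0.517% and 3.21% on Socs2-/- arrays 3 and 4, and 0.103% to 2.38% on the wt arrays. Of the Polycomb members, Bmi1, Ezh1, Rnf2, Cbx7 and Cbx8 have a single probe, so probes cannot be set against each other for them. Among them Bmi1 was at or below 7.5 on both of these arrays, while Ezh1 was higher there than on any wt array.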
